A study of Mus musculus with 9 samples.

Results

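Pth, Casr, Chga and Chgb are the 4 genes described here, out of 19505 distinct gene symbols measured. They were taken by symbol, with 1 transcript cluster each. The values come from 9 Clariom S mouse arrays, which read total RNA of thymic lobes dissected from C57BL/6 embryos (e13.5) as a log2 signal per transcript cluster. There were 3 arrays of wild type lobes (labelled wt), 3 of Foxn1933/1089 lobes (Foxn1 mutants below) and 3 of Tbx1neo2/neo2 lobes (Tbx1 mutants below), with no treatment. Foxn1 encodes the transcription factor on which thymic epithelium depends, and these mice carry a different Foxn1 allele on each homologue. Tbx1 encodes a T-box factor of the pharyngeal pouches, and neo2 is a germline allele with a neomycin cassette that lowers Tbx1 expression in every tissue, so neither model is confined to 1 cell type. Titles of all wild type and Foxn1 mutant samples begin with Foxn and those of the Tbx1 mutants with Tbx, so if this prefix names the mouse line, line and genotype cannot be told apart for the Tbx1 mutants. The labels do not say whether the arrays of a genotype came from separate embryos or pools. The p-values therefore measure the spread between these samples, which may be technical.

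The parathyroid gland and the thymus arise from the same endodermal pouch of the pharynx and separate in mid gestation, the parathyroid from its anterior and the thymus from its posterior part. Parathyroid cells read blood calcium through the receptor encoded by Casr and answer low calcium by releasing parathyroid hormone, the product of Pth. The hormone waits in dense-core granules together with chromogranin A, encoded by Chga, an acidic protein that helps such granules form. Chromogranin B, encoded by Chgb, is its relative and is abundant in adrenal chromaffin cells and neurons. Gcm2 encodes the transcription factor that parathyroid cells need to form and survive.

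The genes lie apart from each other, Chgb on chromosome 2 (132781642 to 132795079), Pth on chromosome 7 (113385576 to 113388672), Chga on chromosome 12 (102554941 to 102565027) and Casr on chromosome 16 (36490585 to 36562141), in RefSeq coordinates of GRCm38.p6. Sequence before each gene is shown because 3 of these genes read high and low on the same arrays and Chgb did not. RefSeq's promoter table counts from a start at 113388573 for Pth and 36562134 for Casr, which lie 99 and 7 bases inside the gene spans given above, and from the first base of the span for Chga and Chgb. Of the 150 bases before these starts, only those outside the gene span are printed, plus 30 bases around a match in Pth that lies inside the span. Letters in capitals mark a match to the cAMP response element TGACGTCA with at most 1 mismatch; the other letters searched, on both strands of the 250 bases before the table's start, were TATAAA and the GCM site ATGCGGGT. In order, the stretches are chr7:113388673-113388723 and the match at chr7:113388601-113388630, both on the minus strand, chr16:36562142-36562284 on the minus strand, chr12:102554791-102554940 on the plus strand and chr2:132781492-132781641 on the plus strand.
Pth: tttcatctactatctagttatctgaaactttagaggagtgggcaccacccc
Pth match: agaaccaggagTGACATCAtccttaacaat
Casr: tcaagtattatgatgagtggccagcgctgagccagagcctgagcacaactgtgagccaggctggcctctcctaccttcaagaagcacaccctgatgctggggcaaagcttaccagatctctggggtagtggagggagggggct
Chga: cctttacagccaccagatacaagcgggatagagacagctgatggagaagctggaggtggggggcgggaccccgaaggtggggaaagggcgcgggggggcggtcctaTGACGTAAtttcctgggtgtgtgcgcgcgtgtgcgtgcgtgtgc
Chgb: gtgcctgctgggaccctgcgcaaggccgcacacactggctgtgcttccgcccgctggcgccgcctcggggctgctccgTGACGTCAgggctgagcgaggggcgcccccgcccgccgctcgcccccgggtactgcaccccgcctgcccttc

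Positions count back from the promoter table's start. Chgb held the full element, from 72 to 65 bases before it, which 1.55% of 32851 RefSeq promoters also hold in this window. Pth held TGACATCA from 46 to 39 bases and Chga TGACGTAA from 44 to 37 bases before that start, each with 1 mismatch, and 10.6% of promoters hold a match as close as that or closer. The 150 bases before the table's start, printed or not, held 43.3% G and C at Pth, 56.7% at Casr, 64.0% at Chga and 77.3% at Chgb. TATAAA was found at Pth alone, from 249 to 244 bases before the start (12.4% of promoters hold it), and ATGCGGGT at none of the 4 (0.207% of promoters hold it). A match is a run of letters and not a measured binding site. The full element stood at the gene that read as background on all arrays, and Casr held none of the motifs searched.

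The arrays had medians between 5.09 and 5.20 and negative-control medians between 4.27 and 4.94; the 95th percentile of the negative controls lay between 8.03 and 9.70. Wild type replicate 1 and Foxn1 mutant replicate 2 stood apart, with Prss16, a serine protease gene of the thymic cortex, at 4.24 and 4.45 against 13.87 to 14.43 on the remaining 7. Sympathetic nerve genes were high on wild type replicate 1 alone, with Th, the first enzyme of catecholamine synthesis, at 12.44 against 2.56 to 4.07 elsewhere. The sample titles carry 3 date codes of unstated meaning, called A, B and C; code A holds 1 array of each genotype, code B no Tbx1 mutant and code C no Foxn1 mutant. For Uty, a gene of the Y chromosome, the wild type arrays gave 7.56 to 8.84 and the Foxn1 mutants 2.47 to 3.71, while Tbx1 mutant replicate 1 gave 8.47 and replicates 2 and 3 gave 3.445 and 3.66. Foxn1 read 7.78 to 10.35 and Tbx1 4.07 to 5.85 over all arrays, with the genotypes overlapping for both, and the labels and files do not place their probes relative to the altered alleles.

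**Figure D1:**
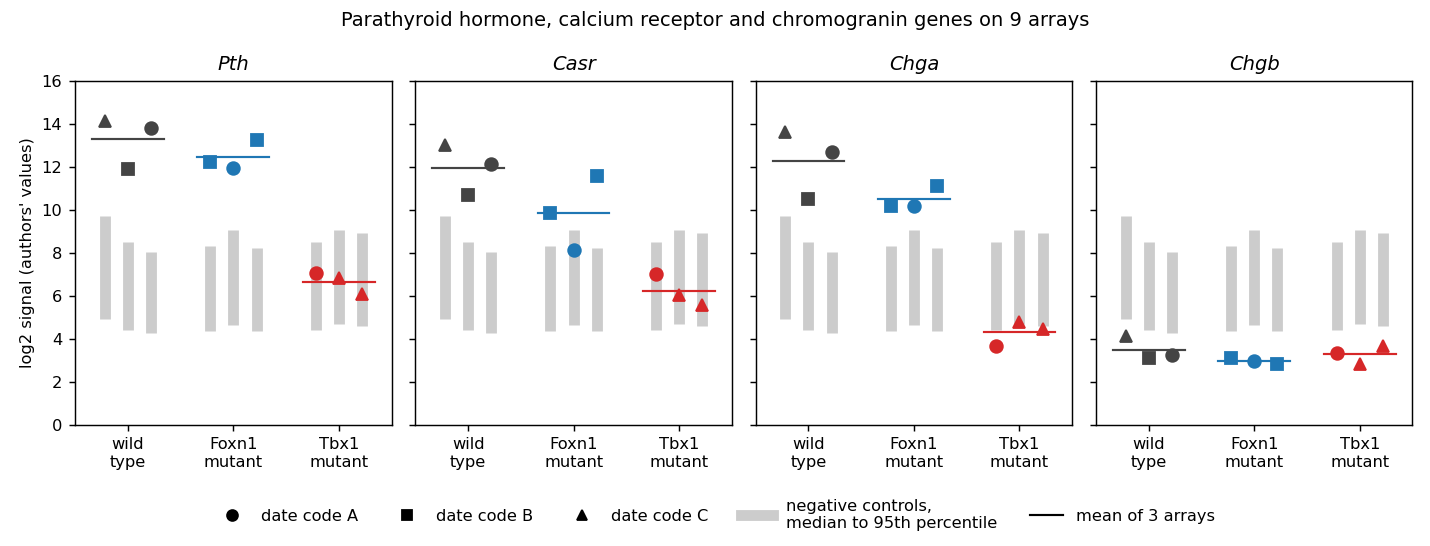
Log2 signal of Pth, Casr, Chga and Chgb on each of the 9 arrays, grouped by genotype, with the mean of 3 arrays as a line, the date code as the symbol and each array's negative controls (median to 95th percentile) as a grey bar. The Tbx1 mutant arrays lie under all other arrays for Pth, Casr and Chga, and Chgb lies under the grey bar on all 9.

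The first question is how the hormone, its calcium sensor and its granule proteins differed between Tbx1 mutant and wild type lobes. Pth and Chga fell in the Tbx1 mutants, and with Casr, which was not called, they had the 3 most negative mean differences among all 22206 clusters. Of the 4 genes, 2 passed an adjusted p of 0.05 (limma, Benjamini-Hochberg over all clusters), against 0.0135% of all clusters. The 4 were chosen with earlier results of these data known, so this share describes them and is no independent evidence. The 3 Tbx1 mutant arrays lay under all 3 wild type arrays for 3 of the 4 genes, against 4.27% of clusters that did so. An exact permutation test of 3 arrays against 3 cannot give a p below 0.1, so the calls rest on the spread that limma pools over clusters. These are whole lobes, in which fewer cells of a type and less RNA per cell cannot be told apart.

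Pth read 14.13, 11.89 and 13.82 on wild type replicates 1, 2 and 3, and 7.06, 6.85 and 6.07 on the Tbx1 mutants. No Tbx1 mutant array came within 4.83 log2 units of the lowest wild type array. The means were 6.66 ± 0.52 and 13.28 ± 1.22 (SD, n = 3 arrays), a log2 difference of -6.62 ± 0.58 (SE; limma adjusted p = 0.00892), or 98.6-fold lower (95% confidence interval 39.8 to 244). All 3 Tbx1 mutant readings were above the negative-control median and under the 95th percentile of those controls on the same array. With readings under that percentile raised to it, a choice made after the data had been seen, the difference was -4.43 (adjusted p = 0.000821). The difference was -6.765 within date code A and -7.67 within code C. The call ended with the date code as a fixed block (-6.89, adjusted p = 0.0534), with only the 6 arrays compared (adjusted p = 0.126), and without wild type replicate 3 (-6.35, adjusted p = 0.0597), Tbx1 mutant replicate 2 (-6.72, adjusted p = 0.0633) or Tbx1 mutant replicate 3 (-6.33, adjusted p = 0.0984).

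Casr, the calcium sensor, read 13.03, 10.69 and 12.16 in wild type and 7.02, 6.02 and 5.585 in the Tbx1 mutants. The groups were 3.67 log2 units apart at their nearest. With means of 6.21 ± 0.735 against 11.96 ± 1.18 (SD, n = 3), the log2 difference was -5.75 ± 0.85 (SE) and was not called (limma adjusted p = 0.107), although its p ranked 9th of 22206. The 95% confidence interval of the difference ran from -7.65 to -3.85. Within code A Casr was -5.14 and within code C -7.22. Array weights gave -5.43 (adjusted p = 0.0437), and subtracting each array's mean over 13 epithelial genes gave -5.88 (adjusted p = 0.00607), so the call depended on how array differences were treated. As for Pth, the Tbx1 mutant readings lay between the median and the 95th percentile of the negative controls; raised to that percentile, the difference was -3.11 (adjusted p = 0.0526).

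Chga, the granule protein, read 13.65, 10.51 and 12.675 in wild type and 3.68, 4.78 and 4.46 in the Tbx1 mutants. Its Tbx1 mutant arrays lay 5.73 log2 units or more under the lowest wild type array, the widest gap of the 4 genes. Only 1 of the 3, replicate 2, was above its negative-control median, so the level there is a bound. The means were 4.30 ± 0.57 and 12.28 ± 1.61 (SD, n = 3) and the log2 difference -7.97 ± 0.69 (SE; limma adjusted p = 0.00892). The 95% confidence interval of this difference ran from -9.52 to -6.425. With the negative-control median of each array as the lowest level the difference was -7.68, a point estimate of 205-fold lower. Raising readings to the 95th percentile of the controls gave -3.425 (limma adjusted p = 0.0145), or 10.7-fold lower, so the size of the fold depended on the floor. Within codes A and C the difference was -8.999 and -9.03, and with the date code as a fixed block -8.66 (adjusted p = 0.00515). The call ended with only the 6 arrays compared (adjusted p = 0.126) and without wild type replicate 3 (-7.77, adjusted p = 0.0597), Tbx1 mutant replicate 2 (-8.21, adjusted p = 0.0633) or Tbx1 mutant replicate 3 (-8.05, adjusted p = 0.0984).

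Chgb, the other chromogranin, had wild type readings of 4.11, 3.10 and 3.25, Foxn1 mutant readings of 3.10, 2.97 and 2.83 and Tbx1 mutant readings of 3.36, 2.81 and 3.68. All 9 readings were under the negative-control median of their array, so no fold is given. The highest came from wild type replicate 1, the array with high Th. Between Tbx1 mutants and wild type the difference was -0.20 ± 0.31 (SE; limma adjusted p = 1.00; 95% confidence interval -0.91 to 0.50). At these levels a fall in Chgb was not detectable, nor was a rise that stayed within background.

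**Figure D2:**
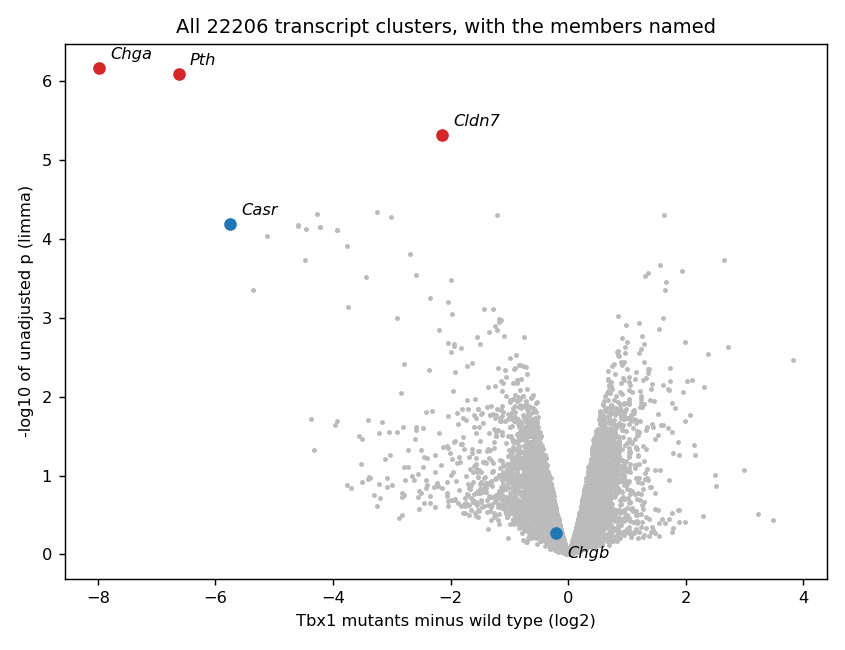
Difference in mean log2 signal between Tbx1 mutants and wild type (x axis) against the -log10 of limma's unadjusted p (y axis) for all 22206 clusters, with clusters that passed an adjusted p of 0.05 in red and the other members in blue. Chga at -7.97, Pth at -6.62 and Casr at -5.75 lie furthest to the left, and Chgb at -0.20 lies near 0.

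The third cluster that passed in this comparison was Cldn7, a tight junction protein of epithelia. Its wild type readings were 9.94, 9.69 and 9.62, the Foxn1 mutant readings 8.95, 8.94 and 8.82 and the Tbx1 mutant readings 7.20, 7.98 and 7.65, with a log2 difference of -2.14 ± 0.23 (SE; limma adjusted p = 0.0354). This call ended in 8 of the 9 fits without 1 array, all but that without wild type replicate 2 (adjusted p = 0.0412), where the others gave 0.0633 to 0.301. It also ended with quantile normalization (0.0667), the date code as a fixed block (0.0534), only the 6 arrays compared (0.223), without both arrays that stood apart (0.0881) and with the epithelial mean subtracted (1.00). With readings raised to the 95th percentile of the negative controls the Cldn7 difference was -0.90 (adjusted p = 0.917). Epcam, an adhesion molecule of many epithelia, read 8.33 to 8.83 in wild type and 7.975 to 8.50 in the Tbx1 mutants. The Epcam difference was -0.35 ± 0.22 (SE, limma adjusted p = 1.00).

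The comparison of Tbx1 mutants with Foxn1 mutants sets the same Tbx1 mutant arrays against the other mutant genotype, with no wild type array in the contrast. Pth, Casr and Chga were each lower on all 3 Tbx1 mutant arrays than on any Foxn1 mutant array, 3 of the 4 genes against 5.00% of clusters. None of the 4 was called, with 0% of clusters called and 661 clusters at an unadjusted p under 0.05 (limma). Pth differed by -5.81 ± 0.58 (SE; adjusted p = 0.0561), Chga by -6.19 ± 0.69 (adjusted p = 0.0691), and Casr by -3.64 ± 0.85 (adjusted p = 0.999). Pth and Chga had the lowest and the second lowest p of all clusters here. Both passed without wild type replicate 1 (adjusted p = 0.0166 for each) or wild type replicate 2 (adjusted p = 0.00211 for each), arrays that enter this contrast through the pooled spread alone. They did not pass without wild type replicate 3 (adjusted p = 0.142 for Pth and 0.202 for Chga) or without any single mutant array (0.207 to 0.468 for Pth and 0.231 to 0.687 for Chga). Both passed with only the 6 arrays compared (adjusted p = 0.00583 for Pth and 0.00382 for Chga). Readings raised to the 95th percentile of the negative controls gave -3.62 for Pth (limma adjusted p = 0.0182). They gave -1.64 for Chga and -1.32 for Casr (limma adjusted p = 0.643 for each), so the size depended on the floor. Within code A, the only code with both genotypes, the differences were -4.89 for Pth, -6.49 for Chga and -1.11 for Casr. Chgb differed by 0.32 ± 0.31 (SE; adjusted p = 0.999) between background readings.

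Setting Foxn1 mutants against wild type asks whether the parathyroid genes differed where the thymic regulator, and not the pouch regulator, was altered. All Foxn1 mutant arrays kept Pth and Chga above the 95th percentile of their negative controls, and no gene of the 4 was called (limma; 0% of clusters were called and 898 had an unadjusted p under 0.05). Pth read 12.22, 11.95 and 13.25 on the 3 Foxn1 mutants, within the wild type range of 11.89 to 14.13. Its mean of 12.47 ± 0.69 (SD, n = 3) was -0.81 ± 0.58 (SE) from wild type, with a 95% confidence interval of -2.12 to 0.50. Chga read 10.21, 10.17 and 11.10, a mean of 10.49 ± 0.53 (SD), at -1.785 ± 0.69 from wild type (SE; 95% confidence interval -3.33 to -0.24; adjusted p = 1.00). Replicates 1 and 2 lay under every wild type array and replicate 3 above wild type replicate 2.

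Casr varied most among the Foxn1 mutants, at 9.85, 8.13 and 11.57. Replicate 2, which also read Prss16 low, was the lowest, and its reading was under the 95th percentile of its negative controls. The mean of 9.85 ± 1.72 (SD, n = 3) was -2.11 ± 0.85 (SE) from wild type (95% confidence interval -4.01 to -0.20; limma adjusted p = 1.00), and it was -1.24 without Foxn1 mutant replicate 2. The direction differed between date codes. Within code A, where wild type replicate 3 faces Foxn1 mutant replicate 2, the differences were -1.88 for Pth, -4.03 for Casr and -2.51 for Chga. In code B, where wild type replicate 2 faces Foxn1 mutant replicates 1 and 3, they were 0.845, 0.02 and 0.14. Without both arrays that stood apart they were -0.12 for Pth, -0.71 for Casr and -0.94 for Chga. Chgb was the single gene of the 4 whose Foxn1 mutant arrays all lay under wild type (3.43% of clusters did so), but its highest Foxn1 mutant and lowest wild type readings were both 3.10 and all were background readings. Because the Uty readings of the 2 genotypes were as far apart as given above, sex and genotype cannot be told apart in this comparison.

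**Figure D3:**
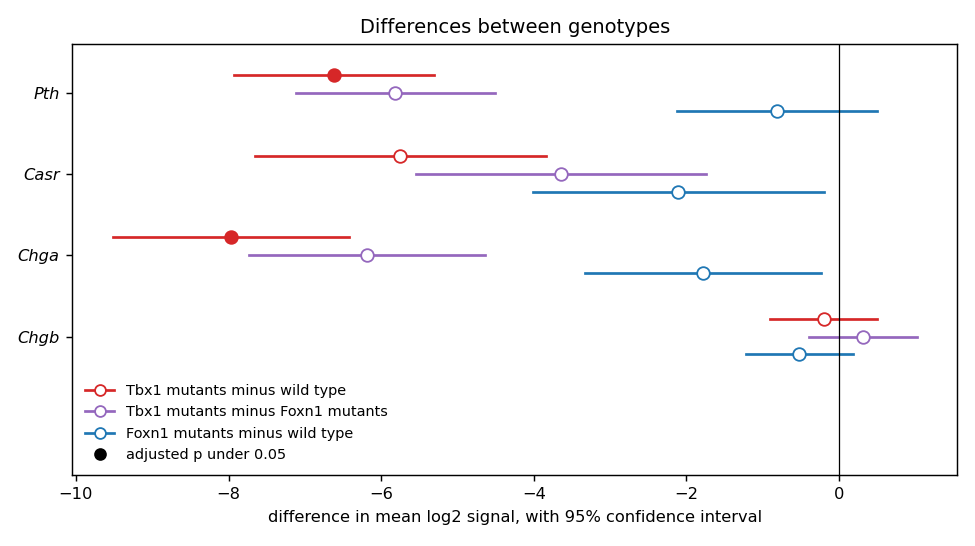
Differences in mean log2 signal for the 3 genotype comparisons (points) with 95% confidence intervals from limma (lines), filled where the adjusted p was under 0.05. The intervals of Pth, Casr and Chga between Tbx1 mutants and either other genotype lie below 0, and only Pth and Chga against wild type are filled.

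Across genotypes the order of the means was the same for Pth, Casr and Chga, highest in wild type, then the Foxn1 mutants, then the Tbx1 mutants. The wild type and Foxn1 mutant arrays overlapped for each of the 3 genes, and the Tbx1 mutants overlapped neither. Among the wild type arrays all 3 genes were highest on replicate 1 and lowest on replicate 2, and among the Foxn1 mutants all 3 were highest on replicate 3 and lowest on replicate 2. Over the 9 arrays Pearson's r was 0.984 between Pth and Chga, 0.941 between Pth and Casr and 0.935 between Casr and Chga. These are descriptions over arrays that share the genotype difference. With each genotype's mean removed, r was 0.81, 0.86 and 0.595 in the same order. Chgb had r between 0.04 and 0.20 with the other 3. Tbx1 mutant replicate 1 had Pth at 7.06, Casr at 7.02 and Chga at 3.68, each under every wild type array. Its Uty reading of 8.47 was in the wild type range, and the other Tbx1 mutant arrays read Uty under that range. The part of sex in the differences between Tbx1 mutants and wild type was not tested.

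Genes were ranked by their correlation with each of Pth, Casr and Chga over the 9 arrays, among 2282 clusters with a symbol and a range of at least 2 log2 units. Chga was the closest to Pth and Pth the closest to Chga. Next for both was Nell1, a secreted glycoprotein with EGF-like repeats, with r = 0.961 to Pth and 0.984 to Chga. The wild type, Foxn1 mutant and Tbx1 mutant means of Nell1 were 7.88, 6.97 and 4.86. Pla2g7, which encodes a secreted platelet-activating factor hydrolase, had r = 0.955 to Pth and 0.963 to Chga, with means of 8.22, 6.92 and 3.75 in the same order. Its Tbx1 mutant readings of 3.83, 3.99 and 3.41 were each under the negative-control median of the array. The 5 clusters closest to Casr were all annotated to Ccl21b, Ccl21c or Gm10591, with r from 0.980 to 0.982. These are near copies of the gene for a chemokine that attracts lymphoid cells. Clusters of Ccl21b and Ccl21c held identical values, so probes may not separate the copies. A Gm10591 cluster and another Ccl21b cluster also matched on every array, so the 5 clusters are not 5 separate profiles. Gm13304 and Gm10591, of the same chemokine family, were among the 5 closest to Pth and to Chga.

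The measured genes nearest to each member on either side were also read. Between Tbx1 mutants and wild type, Btbd10 and Far1 beside Pth were at -0.34 ± 0.20 and -0.08 ± 0.20 (SE), where Pth was at -6.62. Golga5 and Itpk1 beside Chga were at 0.42 ± 0.27 and 0.11 ± 0.31, and Stfa3 and Cd86 beside Casr at 0.70 ± 0.68 and -0.19 ± 0.35. Shld1 and Trmt6 beside Chgb were both at 0.08, and none of the 8 neighbours was called (limma adjusted p = 1.00 for each).

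The wider pathway was read through lists of other genes. Of 10 measured genes for parathyroid and pouch development, 0 were called in any comparison. In the Tbx1 mutants 5 were lower and 5 higher than in wild type, with a median difference of 0.055 (0.015 over all clusters). Eya1, a transcriptional coactivator of the pouches, reached 15.40 on wild type replicate 1, with 11.31 to 13.04 elsewhere, a difference of -1.58 ± 0.78 (SE). Pax1 and Pax9, pouch transcription factors of the paired-box family, were at 0.61 ± 0.63 and -0.32 ± 0.32, and Hoxa3, which patterns the pouch, at -0.34 ± 0.29 and above the negative-control median on 1 array. Gcm2 and Gata3 are not analysed here.

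The granule and prohormone list held 19 measured genes, with 0 called, 15 lower in the Tbx1 mutants and a median of -0.20. Lowest in p was Rab27a, a GTPase that docks granules, at -0.99 ± 0.31 (SE; limma adjusted p = 1.00). The granule membrane protein gene Ptprn2 was at -0.62 ± 0.32 and the granin gene Vgf at -0.37 ± 0.26. Both were under the negative-control median on all 9 arrays. The granule priming factor gene Cadps was at -2.06 ± 1.38; it read 10.30 on wild type replicate 1 and 3.74 to 4.83 elsewhere. The other granin genes Scg2, Scg3 and Scg5 also had their highest reading on that array, at 7.65, 5.89 and 6.31. Cpe, which trims basic residues from prohormones, was high on all arrays (15.90 or more) and at -0.08 ± 0.62. No gene of this list was further below 0 than Cadps.

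For calcium sensing and vitamin D, 0 of 19 genes were called, 13 were lower in the Tbx1 mutants and the median was -0.075. Vdr, the vitamin D receptor that represses Pth transcription, was at -0.85 ± 0.31 (SE; limma adjusted p = 1.00). Gprc6a, a receptor related to the calcium sensor, and Cyp24a1, which breaks vitamin D down, were at 0.30 ± 0.24 and 0.32 ± 0.35, with 0 and 1 of 9 readings above the negative-control median. Ap2s1, an endocytic adaptor on which calcium receptor signalling depends, was at -0.20 ± 0.22. The G protein genes Gnaq and Gna11, which couple the receptor to calcium release, were at -0.10 ± 0.26 and -0.03 ± 0.24. Of 7 other genes of the Pth family, its receptors and their signalling, 0 were called and the median was 0.001. Gnas, the stimulatory G protein, was at -0.93 ± 0.53 and highest on wild type replicate 1 (15.67), Adcy9, an adenylyl cyclase, at -0.50 ± 0.32, Pth2 at 0.27 ± 0.20 and Pth2r at -0.43 ± 0.34.

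**Figure D4:**
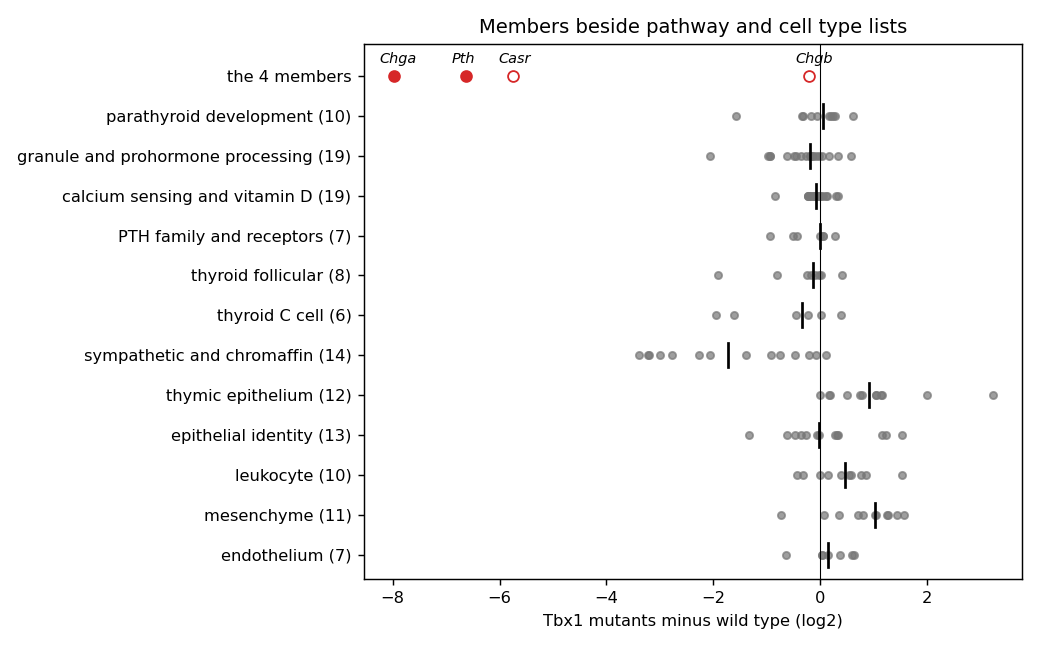
Difference between Tbx1 mutants and wild type (log2, x axis) for the 4 members and for the measured genes of 12 lists (grey points, number of genes in brackets, median as a black bar), with filled red points for an adjusted p under 0.05. The list genes lie between -3.39 and 3.22, and Pth, Casr and Chga lie to the left of all of them.

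Chromogranins also mark other endocrine and nerve cells, so their markers were read beside Chga. Of 14 sympathetic and chromaffin genes, 13 were lower in the Tbx1 mutants with a median of -1.73. Their mean was 10.045 on wild type replicate 1, 5.13 and 5.26 on the other wild type arrays, 5.05 to 5.36 on the Foxn1 mutants and 5.03 to 5.22 on the Tbx1 mutants. Without wild type replicate 1 Chga was at -7.29 (limma adjusted p = 0.0154) and Pth at -6.20 (adjusted p = 0.0248). On wild type replicate 3, where Th read 3.23 and Dbh, which makes noradrenaline, 3.31, Chga read 12.675. Thyroid follicular genes, 6 of 8 lower with a median of -0.14, had wild type means of 3.65 to 4.54, Foxn1 mutant means of 3.60 to 3.82 and Tbx1 mutant means of 3.645 to 3.75. Among these genes Nkx2-1, Tg, Foxe1 and Slc5a5 were under the negative-control median on all 9 arrays. Iyd was above it on 8, Hhex on 6, Pax8 on 2 and Tshr on 1. Pax8, a thyroid transcription factor also used in other organs, had the lowest p of the list (-1.92 ± 0.79, SE; unadjusted p = 0.0364, limma adjusted p = 1.00). Wild type replicate 1 gave 7.305 and replicate 2 gave 6.17 for it, against 3.36 to 4.31 elsewhere, including 3.48 on wild type replicate 3. The C cell list, 4 of 6 lower with a median of -0.34, had wild type means of 3.76 to 6.26, Foxn1 mutant means of 3.68 to 3.985 and Tbx1 mutant means of 3.81 to 4.21. Of these, Calcb, Cckbr and Nkx2-1 were under the negative-control median on every array, Ret was above it on 4, Scg2 on 3 and Syp on 9. Ret and Syp, which neurons also express, were highest on wild type replicate 1, at 10.47 and 9.41, with 3.74 to 4.97 and 4.49 to 5.535 elsewhere. The part of these genes in the difference of Chga was not tested.

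Lists for the other cells of the lobes were read in the same way, and 0 of their genes were called in any comparison. Of 11 mesenchyme genes 10 were higher in the Tbx1 mutants, with a median of 1.03 and list means of 10.82 to 11.14 against 10.04 to 10.51 for wild type and 10.64 to 11.72 for Foxn1 mutants. All but Foxd1 were above the negative-control median on all arrays. Thymic epithelial genes were higher for 11 of 12, with a median of 0.90; their means were 10.05 to 10.25 in the Tbx1 mutants, 6.89 to 10.345 for wild type and 7.32 to 10.07 for Foxn1 mutants, the low ends being the arrays with low Prss16. The part of these values in the differences of Pth, Casr and Chga was not tested. Leukocyte genes, 7 of 10 higher with a median of 0.465, had means of 7.955 to 8.95 in the Tbx1 mutants, 5.49 to 9.675 for wild type and 5.36 to 9.52 for Foxn1 mutants. Endothelial genes, 6 of 7 higher with a median of 0.14, had means of 7.92 to 8.39, 7.57 to 8.13 and 7.67 to 8.45 in that order. The 13 epithelial identity genes had a median of -0.02, and with their mean subtracted from each array Pth was at -6.75 and Chga at -8.10. The arrays with low Prss16 differed in Pth. Wild type replicate 1, at 14.13, was the highest of all arrays, and Foxn1 mutant replicate 2, at 11.95, was the lowest of its genotype.

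**Figure D5:**
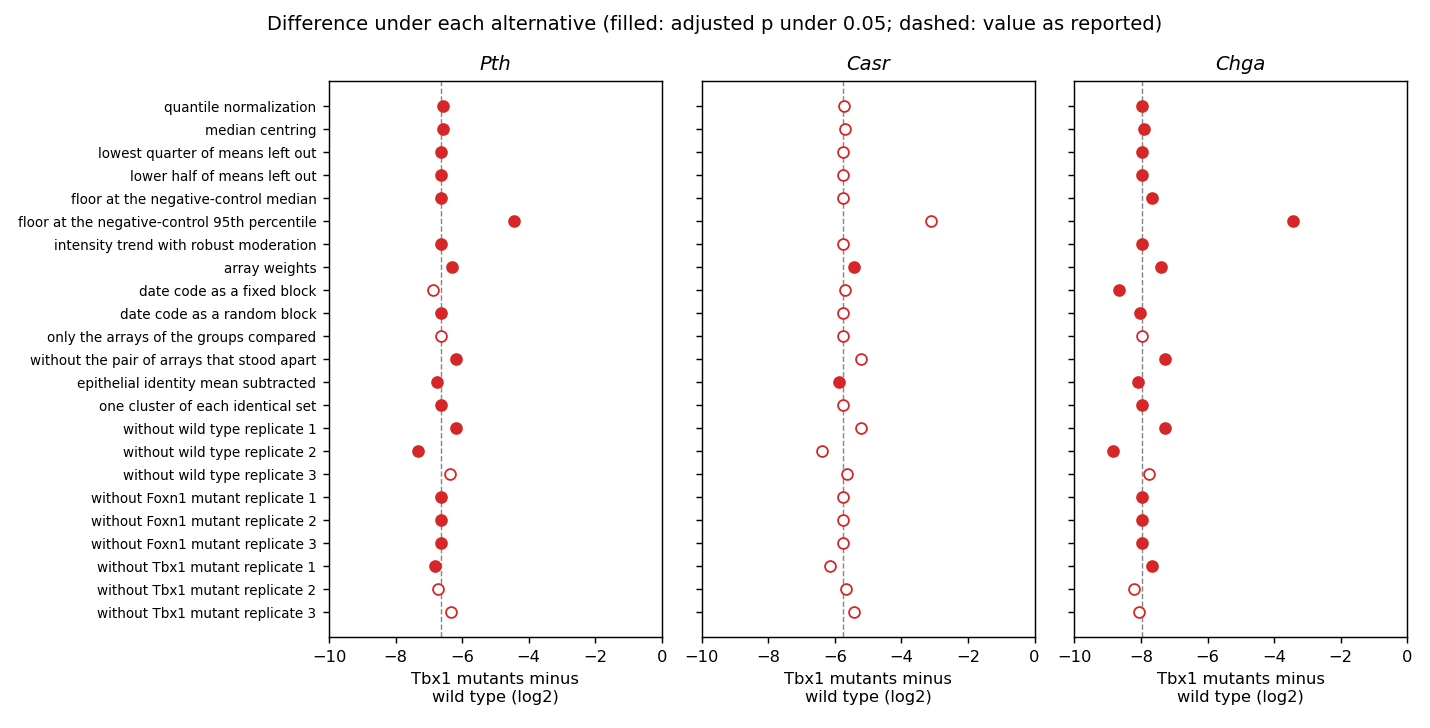
Difference between Tbx1 mutants and wild type (log2, x axis) for Pth, Casr and Chga under each alternative treatment of the data (rows), filled where the adjusted p was under 0.05, with the value as reported as a dashed line. All differences lie below -3; Casr is filled for array weights and for the subtracted epithelial mean alone.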

How the data were processed

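Labelled cDNA of 9 total RNA samples was hybridised to Affymetrix Clariom S mouse arrays, per the labels' protocols. The deposited log2 values, as made by the authors (1.47 to 19.92), were used unchanged; which software, normalization and build made them is not given in the labels or files used. Of 28846 features, 6640 controls were left out (5222 negative controls gave the background), leaving 22206 clusters, 19572 of them with 1 symbol and 2634 with none. Groups follow the genotype label and replicate numbers the sample order. limma 3.58.1 fitted 1 mean per genotype over the 9 arrays together (R 4.3.3; two-sided, adjusted over all clusters, threshold 0.05) and was tested on simulated data. Figures used matplotlib 3.10.9 in Python 3.11.15. Promoters are from RefSeq (GRCm38.p6), in which all 4 members matched.

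The members, gene lists and tests were chosen with earlier results of these data known. Of 148 list genes, 133 were measured. Named genes are the members, the called clusters, up to 4 genes of lowest p between Tbx1 mutants and wild type in each of 4 parathyroid lists, the 5 clusters most like Pth, Casr or Chga, the nearest measured neighbours, Foxn1, Tbx1, Gcm2, Cldn7 and Epcam. All others were chosen after their values were seen. Alternatives were other normalizations, filters, background floors, moderation, weights, date code blocks, fewer arrays and subtraction of the epithelial mean; the floor at the 95th percentile of the negative controls was added after seeing the data.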

Additional observations from a re-analysis of the deposited data

How the results depend on the processing

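In every alternative fit, leaving out arrays included, Pth, Casr and Chga kept the direction of their difference in all 3 comparisons, but within date code B Foxn1 mutants minus wild type was 0.845, 0.02 and 0.14. Beside 3 clusters called between Tbx1 mutants and wild type, array weights gave 17, the floor at the 95th percentile of the negative controls 12, the epithelial mean subtracted 11, the date code as a fixed block 1 and only the arrays compared 0, with 0 to 20 when 1 array was left out. The last setting gave 1 between Foxn1 mutants and wild type, where leaving out 1 array gave 0 to 3. Between the mutants 4 passed with array weights, 1 with the 95th percentile floor, and 2 each at a threshold of 0.10, with the negative-control median floor, with only the arrays compared, without both arrays that stood apart and with the epithelial mean subtracted (0 to 3 with 1 array left out).

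Pth against wild type was no longer called with the date code block (-6.89) or only the arrays compared (-6.62, Chga -7.97); with 1 array left out it ran from -7.32 to -6.20, Chga from -8.86 to -7.29 and Casr from -6.38 to -5.215. Casr was called with array weights (-5.43) and the epithelial mean subtracted (-5.88). Against Foxn1 mutants Pth was called with the median floor (-5.81), the 95th percentile floor (-3.62), array weights (-5.915), only the arrays compared (-5.81), without the pair apart (-6.075) and the epithelial mean subtracted (-5.86), and ran from -6.075 to -5.42 with 1 array left out. Chga was called under the same settings (-5.895, -6.14, -6.19, -6.35 and -6.235) but the 95th percentile floor, which gave -1.64. With 1 array left out Chga ran from -6.425 to -5.87. Chgb, at background, changed sign against wild type with the median floor (0.022), the 95th percentile floor (0.10), array weights (0.004) and without the pair apart (0.11; -0.40 to 0.11 with 1 array left out), and against Foxn1 mutants with the date code block (-0.058). For Chgb the filters on low means left no value, and averaging clusters per symbol was no separate setting, each member having 1. The causes were not tested. No paired analysis was possible because any 2 genotypes share at most 1 of the numbers in their titles; the date code was run as a block instead. Signals under the negative controls' 95th percentile, 3 arrays per genotype and the unknown normalization limit the precision.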
